A study of Mus musculus with 6 samples.

Results

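The small leucine-rich proteoglycans are secreted matrix proteins, and 10 of their genes were followed here in the developing root of the mouse molar: Bgn, Dcn, Lum, Ogn, Fmod, Aspn, Omd, Prelp, Kera and Podn. They were chosen by name as genes of this family, out of a table of 23594 genes, and all 10 were present and expressed highly enough to be tested. RNA sequencing was done on 6 libraries of 4.5-day-old C57BL/6 mice, 3 from Control molars, labelled wild type, and 3 from Lhx6-/- littermates. The Lhx6-/- mice carried the Lhx6-CreER knock-in allele on both chromosomes, which abolishes Lhx6, a LIM-homeodomain transcription factor. Each library came from laser-captured tissue of the apical furcation development region, where the root trunk of a multirooted tooth divides, pooled from several mandibular first molars. Mice of both sexes were collected and each library is a pool, so the p-values below measure the spread between pools. Lhx6-/- replicates 2 and 3 held next to no Xist RNA, at 0.228 and 0.0537 CPM, and had the highest sums of Y-linked genes.

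Each of these proteins has a small core built of leucine-rich repeats, and most carry sugar chains of chondroitin, dermatan or keratan sulfate. They bind collagen fibrils and shape fibril diameter and spacing, and some also bind growth factors of the TGF-beta and BMP families. In teeth they are known from predentin, dentin, pulp, cementum, alveolar bone and the periodontal ligament, tissues whose matrix is largely collagen.

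The genes lie mostly in clusters, which is why their start regions are shown before their levels. On chromosome 10, Dcn was followed by Lum after 47.0 kb and by Kera after a further 34.2 kb. On chromosome 13, the family gene Ecm2 was followed by Aspn after 11.7 kb, then Omd after 14.9 kb and Ogn after 15.2 kb. Prelp and Fmod lay 116 kb apart on chromosome 1, while Bgn stood on chromosome X and Podn on chromosome 4. RefSeq promoter windows (GRCm38.p6) were found for 8 of the 10 genes, 9 windows in all, and the 250 bases before the start were searched on both strands. The letters TATAAA, the core of the TATA box, were present in 2 of the 9 member windows, those of Aspn and Ogn. They were present in 12.4% of all 32851 windows, and whether any match acts as a TATA box was not tested. TAATTA, a core letter pattern bound by many homeodomain proteins, was present in 0 of the 9 and in 4.84% of all windows, which says only that these letters are missing there. The GC content of the windows ran from 30.0% for Aspn to 78.0% for 1 of the 2 Podn windows, against a median of 52.4% over all windows. The chromosome 13 neighbours Aspn, Omd and Ogn are printed to show how unlike the starts of adjacent members are, and Bgn because it is the most abundant member. TATAAA on either strand is in capitals, so TTTATA marks the minus strand. In Ogn both matches overlap in a single stretch.
Aspn, chr13:49544193-49544442, plus strand: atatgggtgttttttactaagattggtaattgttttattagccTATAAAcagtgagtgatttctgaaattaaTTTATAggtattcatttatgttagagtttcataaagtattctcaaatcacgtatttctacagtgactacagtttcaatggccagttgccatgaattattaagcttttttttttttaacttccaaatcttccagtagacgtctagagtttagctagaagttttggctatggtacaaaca
Omd, chr13:49582212-49582461, plus strand: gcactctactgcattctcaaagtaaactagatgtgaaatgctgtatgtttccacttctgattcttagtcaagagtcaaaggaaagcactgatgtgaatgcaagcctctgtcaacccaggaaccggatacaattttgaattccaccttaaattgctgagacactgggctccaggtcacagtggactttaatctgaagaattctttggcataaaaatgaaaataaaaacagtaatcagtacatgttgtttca
Ogn, chr13:49607765-49608014, plus strand: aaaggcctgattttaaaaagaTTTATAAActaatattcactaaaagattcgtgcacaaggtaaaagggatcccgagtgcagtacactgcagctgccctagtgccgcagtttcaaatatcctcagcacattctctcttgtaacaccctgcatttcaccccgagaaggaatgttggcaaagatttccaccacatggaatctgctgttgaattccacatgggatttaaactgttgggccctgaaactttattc
Bgn, chrX:73483351-73483600, plus strand: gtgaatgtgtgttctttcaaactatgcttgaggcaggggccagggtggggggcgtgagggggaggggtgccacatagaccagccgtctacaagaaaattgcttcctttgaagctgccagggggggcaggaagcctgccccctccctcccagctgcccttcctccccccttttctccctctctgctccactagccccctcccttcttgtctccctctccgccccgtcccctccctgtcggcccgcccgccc
The Aspn matches began 207 and 178 bases before the start, and those of Ogn 229 and 227 bases before it. These starts are those of the RefSeq windows and can differ from the gene spans given below. For Ogn the window's start was 49608015, against 49608046 for the span. The Kera window and both Podn windows lay inside the spans of their genes. The GC content was 38.4% for Omd, 42.0% for Ogn and 64.4% for Bgn.

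Levels are given as CPM, counts scaled to a common library size, and different genes are ranked by level only after division by exon length (CPM per kb). Sums, shares and ratios of genes use CPM, so they also follow exon length. Library totals ran from 60132323 to 76157433 estimated counts. Lhx6 was measured at 27.8, 18.2 and 21.9 CPM in the Control libraries and at 12.8, 9.82 and 10.5 CPM in the Lhx6-/- libraries. It was lower in every Lhx6-/- library, by 1.04 on the log2 scale (edgeR adjusted p = 0.0210). The labelled tissue was checked against 10 lists of marker genes. The 8 dental mesenchyme markers summed to 389 to 401 CPM in Control and 438 to 456 CPM in Lhx6-/- libraries, and 1 of them, the homeobox gene Dlx1, was higher (log2 fold change 0.65, adjusted p = 0.0413). The 4 odontoblast markers summed to 5286 to 5795 and 6443 to 7099 CPM, the 6 osteoblast markers to 6447 to 6568 and 5702 to 6775 CPM, and the 6 ligament and follicle markers to 2094 to 2209 and 2038 to 2199 CPM, in Control and Lhx6-/- libraries respectively. Of the 9 epithelial markers, 3 met the test rule given below and were lower in Lhx6-/- tissue, among them the keratins Krt14 (log2 fold change -0.62) and Krt5 (-0.72), none with an adjusted p under 0.05. Without the enamel genes the epithelial markers summed to 898, 1380 and 972 CPM in Control and 635, 690 and 756 CPM in Lhx6-/- libraries, and with them to 135641 to 145505 and 114999 to 146345 CPM. Endothelial markers summed to 218 to 231 and 252 to 295 CPM, with Cldn5, a tight junction protein of vessels, higher by 0.64 (log2, adjusted p = 0.0140). Cartilage (813 to 1191 and 738 to 854 CPM), leukocyte (306 to 321 and 282 to 322 CPM), muscle (990 to 1355 and 1023 to 1639 CPM) and nerve markers (130 to 392 and 143 to 374 CPM) overlapped between the groups, and none of their genes met the rule. The captured tissue thus held dental mesenchyme and epithelium in all 6 libraries. In such bulk tissue fewer cells of a type and less RNA per cell cannot be told apart.

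Set side by side per exon length, the 10 genes covered a range from 827 CPM per kb for Bgn to 0.777 CPM per kb for Podn, as means over the 6 libraries. Dcn followed Bgn at 219 CPM per kb, Lum at 91.8, Ogn at 50.6, Fmod at 50, Aspn at 20.8, Omd at 13.3, Prelp at 5.24 and Kera at 3.69 CPM per kb. The step from Bgn to Dcn was 3.78-fold and that from Dcn to Lum 2.38-fold, each in the same order in 6 of 6 libraries. Neighbours in this order kept their order in every library except for 2 pairs. Ogn lay above Fmod in 3 of 6 libraries with a ratio of means of 1.01, and Prelp above Kera in 5 of 6 with a ratio of 1.42. Among the 10 genes Bgn thus dominated in both genotypes, and it made up 59.5% to 65.6% of the summed CPM of the 10 genes in Control and 64.4% to 67.2% in Lhx6-/- libraries.

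**Figure D1:**
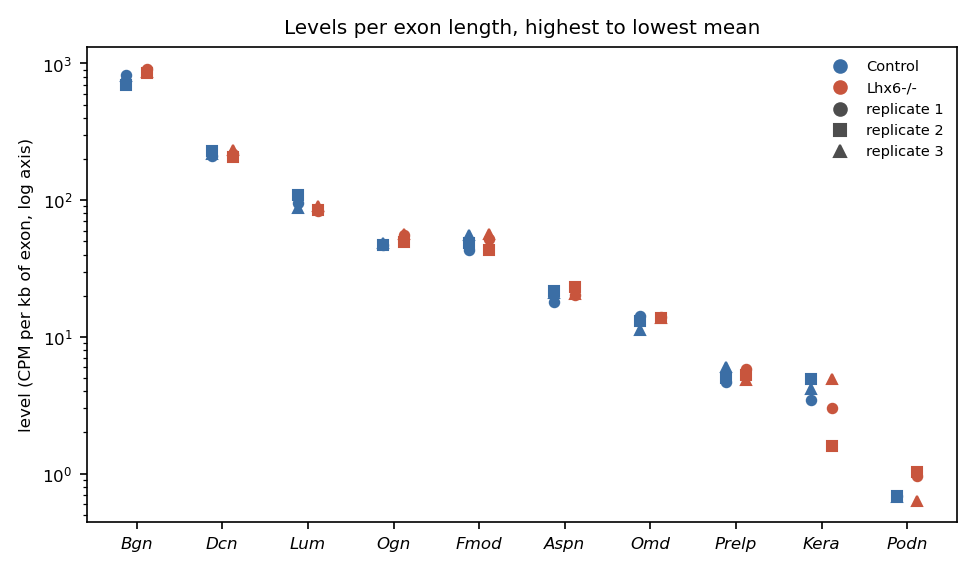
Level of each gene per exon length (CPM per kb, log axis) in each of the 6 libraries, with Control in blue and Lhx6-/- in red and the replicate given by the shape of the symbol. The genes are ordered from Bgn, with a mean of 827 CPM per kb, to Podn, with 0.777, and the points of Ogn and Fmod and those of Prelp and Kera share part of their range.

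The question of the comparison was whether loss of Lhx6 changes expression in this region. None of the 10 genes changed by the rule of the study's methods, which asks for a fold of 1.5 or more together with an unadjusted p below 0.05. The count was 0 of 10, against 3.28% of all 20114 genes tested. With an adjusted p under 0.05 the count was again 0 of 10, against 0.403% of all genes, and 1 of the 10, Ogn, had an unadjusted p under 0.05, against 9.81%. In DESeq2, 3 of the 10 (Bgn, Lum and Ogn) had an unadjusted p under 0.05, against 10.1% of the genes it tested, and 0 an adjusted one. The Control and Lhx6-/- libraries did not overlap for 2 of the 10, Bgn and Ogn, against 15.5% of all genes. Of the 10, 7 had a higher mean fit and 3 a lower one in Lhx6-/- libraries, with a median log2 fold change of 0.06, beside 0.00 over all genes.

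How large a change could have gone unseen is given by the 95% interval of each difference. This interval lay wholly within a 1.5-fold change (0.585 on the log2 scale) in either direction for 8 of the 10 genes, against 54.2% of all genes tested. The 8 were those with a mean of at least 10 CPM, and among all 9480 genes of that level the share was 94.3%. Such narrow intervals therefore went with abundance. The exceptions were Kera and Podn, the 2 members of lowest level, for which a change of 1.5-fold or more lay inside the interval.

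**Figure D2:**
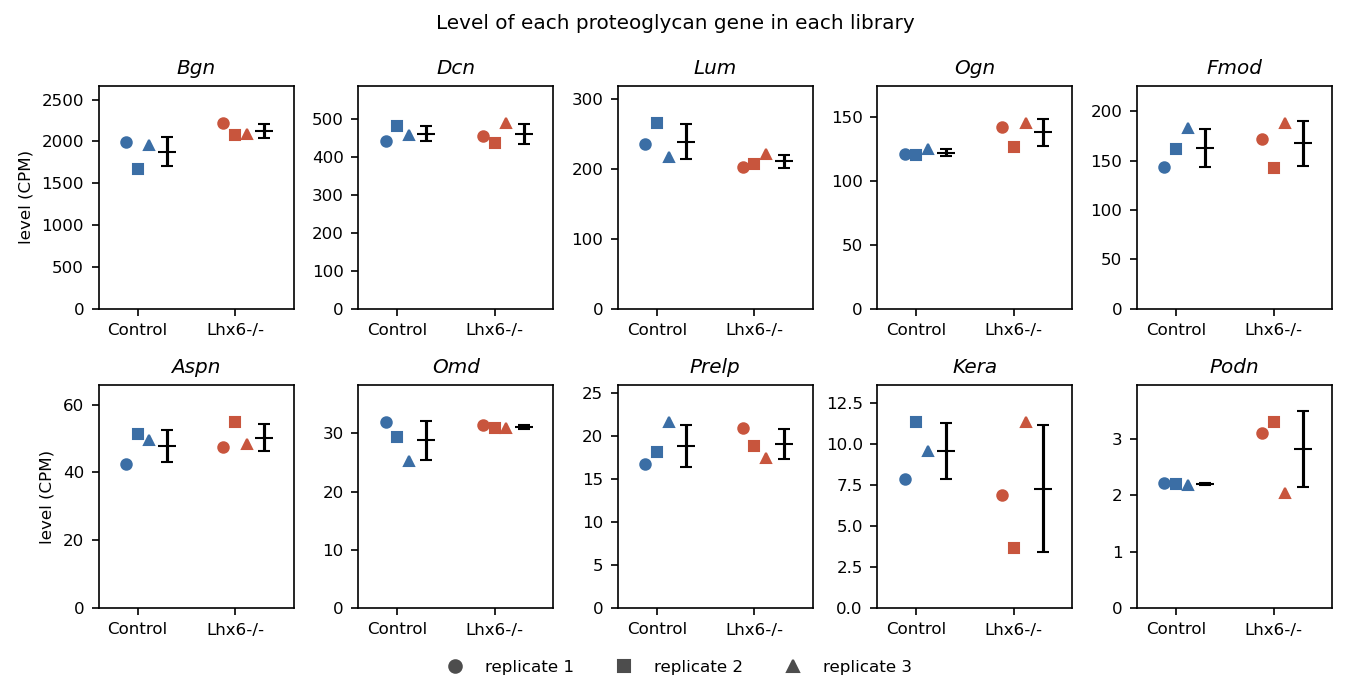
Level (CPM, linear axis from 0) of each of the 10 genes in each Control (blue) and Lhx6-/- (red) library, with the replicate given by the shape and the mean with its SD in black (n = 3 per group). The groups do not overlap for Bgn and Ogn, and the widest spread relative to the mean is that of Kera in Lhx6-/- libraries, from 3.64 to 11.3 CPM.

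**Figure D3:**
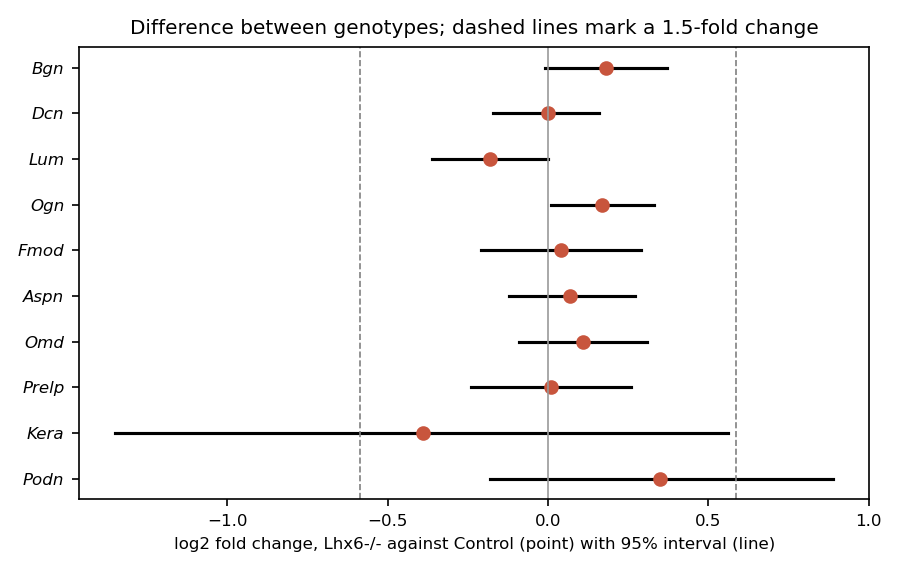
Log2 fold change of each gene, Lhx6-/- against Control (point), with its 95% interval (line) from the edgeR fit, and dashed lines at a 1.5-fold change. The intervals of 8 genes lie between the dashed lines, and those of Kera (-1.35 to 0.56) and Podn (-0.18 to 0.89) pass beyond one of them.

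The proteoglycans that carry chondroitin or dermatan sulfate come first, with their relative asporin. Bgn (biglycan, chrX:73483602-73495933, plus strand), a binder of collagen and of TGF-beta and BMP ligands, was measured at 1995, 1676 and 1958 CPM in Control and 2219, 2073 and 2083 CPM in Lhx6-/- libraries. All Lhx6-/- libraries lay above all Control libraries, and the low value was Control replicate 2. The means were 1876 ± 175 and 2125 ± 81.5 CPM (SD, n = 3 each), a log2 fold change of 0.18 (95% interval -0.01 to 0.37, edgeR adjusted p = 0.561). Control replicate 2 was also the library with the highest sum of epithelial markers without the enamel genes, 1380 CPM. With the enamel genes its sum was 138662 CPM, and the highest was that of Lhx6-/- replicate 3, 146345 CPM. Without Control replicate 2 the log2 fold change of Bgn was 0.11. With the mean log2 level of all 9 epithelial markers, enamel genes included, as a covariate it was 0.005. A covariate made likewise from the Y-linked genes gave 0.40 (edgeR adjusted p = 0.0565). Without Lhx6-/- replicate 2 it was 0.199, and without Lhx6-/- replicate 3 it was 0.195. Those Y-linked genes, which follow the share of male cells in a pool, summed to 17.4, 58.0 and 14.6 CPM in Control and 55.1, 92.1 and 88.5 CPM in Lhx6-/- libraries. Xist, the RNA that coats the inactive X chromosome, stood at 792, 411 and 628 CPM in Control and at 290, 0.228 and 0.0537 CPM in Lhx6-/- libraries. Bgn is X-linked, and the part that the sex make-up of the pools had in its difference was not tested beyond that covariate. The sums of dental mesenchyme, odontoblast and endothelial markers given above were, like Bgn and Ogn, higher in every Lhx6-/- library than in any Control library, and their part was not tested.

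Dcn (decorin, chr10:97479609-97518143, plus strand), the best known regulator of collagen fibril growth in the family, was the most alike between the genotypes. It was measured at 442, 481 and 457 CPM in Control and 454, 437 and 488 CPM in Lhx6-/- libraries. The ranges overlapped almost wholly, and the means were 460 ± 19.9 and 460 ± 26.0 CPM (SD, n = 3 each). The fitted ratio of Lhx6-/- to Control was 0.999 with a 95% interval from 0.890 to 1.12 (edgeR adjusted p = 0.995).

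Aspn (asporin, chr13:49544443-49567565, plus strand) is named for a run of aspartates, lacks the sugar chains of its relatives and is known to hold back BMP2 action in periodontal ligament cells. It was measured at 42.4, 51.4 and 49.7 CPM in Control and 47.5, 54.8 and 48.4 CPM in Lhx6-/- libraries, and the groups overlapped. The log2 fold change was 0.07 (95% interval -0.12 to 0.27, edgeR adjusted p = 0.878).

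Among the members that carry keratan sulfate, Lum (lumican, chr10:97565128-97572703, plus strand), a regulator of fibril assembly in cornea and skin, was measured at 235, 265 and 216 CPM in Control and 203, 207 and 221 CPM in Lhx6-/- libraries. The groups overlapped through a single pair, Lhx6-/- replicate 3 lying above Control replicate 3, and the highest value was again that of Control replicate 2. The means were 239 ± 24.2 and 211 ± 9.57 CPM (SD, n = 3 each), a log2 fold change of -0.18 (95% interval -0.36 to 0.00, edgeR adjusted p = 0.518). Without Control replicate 2 it was -0.10, and with the epithelial covariate -0.018. It was stronger without Control replicate 3, at -0.246, and with the Y-linked covariate, at -0.38 (edgeR adjusted p = 0.0729).

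Fmod (fibromodulin, chr1:134037254-134048277, plus strand), which binds collagen at the same region as lumican and guides its cross-linking, was measured at 144, 162 and 183 CPM in Control and 172, 143 and 188 CPM in Lhx6-/- libraries. The groups overlapped, with a log2 fold change of 0.04 (95% interval -0.21 to 0.29, edgeR adjusted p = 0.954). Omd (osteomodulin, also osteoadherin, chr13:49582462-49592822, plus strand), a proteoglycan of mineralised tissue made by osteoblasts and odontoblasts, was measured at 31.9, 29.3 and 25.3 CPM in Control and 31.4, 30.9 and 31 CPM in Lhx6-/- libraries. The Lhx6-/- values lay within the Control range, and their SD was 0.251 CPM against 3.32 CPM in Control. Its log2 fold change was 0.11 (95% interval -0.09 to 0.31, edgeR adjusted p = 0.791).

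Prelp (chr1:133910304-133921414, minus strand), a basic protein that links basement membranes to collagen, was measured at 16.8, 18.2 and 21.6 CPM in Control and 20.9, 18.9 and 17.4 CPM in Lhx6-/- libraries. The groups overlapped fully, with a log2 fold change of 0.01 (95% interval -0.24 to 0.26, edgeR adjusted p = 0.989). Its gene overlaps Gm15851 on the opposite strand, and whether reads were counted by strand is not given in the sources used here.

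Kera (keratocan, chr10:97606879-97613692, plus strand), known from the corneal stroma and tendon, varied the most relative to its mean. It was measured at 7.86, 11.3 and 9.55 CPM in Control and 6.86, 3.64 and 11.3 CPM in Lhx6-/- libraries, from 271 to 844 counts. The lowest value was Lhx6-/- replicate 2 and the highest Lhx6-/- replicate 3, so the Control range lay inside that of Lhx6-/- libraries. The coefficient of variation was 17.8% in Control and 53.1% in Lhx6-/- libraries, beside medians of 7.49% and 6.49% over all genes with a mean of at least 10 CPM. The log2 fold change was -0.39 (95% interval -1.35 to 0.56, edgeR adjusted p = 0.839). Single libraries decided its size. Without Lhx6-/- replicate 2 the log2 fold change was -0.07, and without Lhx6-/- replicate 3 it was -0.87 and met the rule of fold and unadjusted p (edgeR adjusted p = 0.292). With the epithelial covariate it was 0.071. The 6 ligament and follicle markers summed to 2199, 2177 and 2038 CPM in the Lhx6-/- libraries. Some of these markers were lowest in replicate 2, like Kera, and others in replicate 3. Their part in the spread of Kera was not tested.

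Of the remaining members, Ogn (osteoglycin or mimecan, chr13:49608046-49624501, plus strand), a keratan sulfate protein of bone and connective tissue, was measured at 121, 120 and 125 CPM in Control and 142, 126 and 145 CPM in Lhx6-/- libraries. All Lhx6-/- libraries lay above all Control libraries, although Lhx6-/- replicate 2 exceeded the highest Control library only slightly. The means were 122 ± 2.57 and 138 ± 10.5 CPM (SD, n = 3 each), a log2 fold change of 0.17 (95% interval 0.01 to 0.33, edgeR adjusted p = 0.472), so the difference did not pass after adjustment over all genes. Over the 17 other fits described below, the log2 fold change of Ogn ran from 0.132 to 0.235. The unadjusted p was under 0.05 in 9 of these 17 fits, and the adjusted p ran from 0.333 to 0.798. Aspn, Omd and Ogn lie within the span of Cenpp on the opposite strand, a gene measured at only 1.81 CPM.

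Podn (podocan, chr4:108014791-108096445, minus strand), known to bind collagen and to slow the growth of smooth muscle cells, had the lowest level. It was measured at 2.22, 2.20 and 2.18 CPM in Control and 3.11, 3.29 and 2.04 CPM in Lhx6-/- libraries, from 129 to 245 counts. Of the Lhx6-/- libraries, 2 lay above all Control libraries and replicate 3 lay below them. The log2 fold change was 0.35 (95% interval -0.18 to 0.89, edgeR adjusted p = 0.716). Leaving out Lhx6-/- replicate 2 gave 0.23 (edgeR adjusted p = 0.981), and leaving out Lhx6-/- replicate 3 gave 0.54 (adjusted p = 0.495). Its annotated span overlaps Scp2, a gene of 52.0 CPM on the same strand, so the Podn value depends on how shared reads were assigned and is uncertain.

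Because some members differed in opposite directions, ratios of their CPM within a library, which do not depend on library scaling, were also taken. Of 11 ratios, chosen after the values were seen, 2 did not overlap between the groups. The 15.5% given above is a share of single genes and no baseline for ratios. These 2 ratios share Lum, and Bgn and Ogn did not overlap on their own either, so they are not separate results. Bgn over Lum was 8.47, 6.34 and 9.05 in Control and 10.9, 10 and 9.41 in Lhx6-/- libraries. Ogn over Lum was 0.516, 0.454 and 0.578 in Control and 0.698, 0.607 and 0.656 in Lhx6-/- libraries. Both ratios were higher in every Lhx6-/- library than in any Control library. They were not tested, since they were chosen with their values known. The ratio of Bgn to Dcn overlapped, at 3.48 to 4.51 in Control and 4.27 to 4.88 in Lhx6-/- libraries, and so did that of Dcn to Lum, at 1.82 to 2.11 and 2.11 to 2.24. The neighbours Ogn and Omd stood at a ratio of 3.8 to 4.93 in Control and 4.06 to 4.69 in Lhx6-/- libraries. The CPM of all 10 genes summed to 3039, 2816 and 3048 in Control and 3300, 3098 and 3236 in Lhx6-/- libraries, a sum that mainly follows Bgn.

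Patterns over the 6 libraries were compared by the root mean square difference of log2 CPM, each gene centred on its own mean. The gene nearest to a member among those with a mean of at least 10 CPM was Rtn3 for Dcn (0.016), Ago2 for Bgn (0.017), Rwdd1 for Lum (0.021), Agrn for Omd (0.021), Stk39 for Ogn (0.031) and Cpsf6 for Aspn (0.031), in log2 units. It was Itgb3 for Prelp (0.041), Hpse for Fmod (0.043), BC067074 for Podn (0.051) and Gm9825 for Kera (0.187). No member was the nearest gene of another. Within the family, Bgn and Ogn were nearest to each other at 0.091, and Kera was the farthest member from each of the other 9. This measure is not scaled, so it also follows how much each gene varies. The root mean square amplitude of Kera was 0.56, and the next largest was that of Podn, 0.268. Of the 8 members that share a chromosome with another, 2 (Lum and Omd) had their nearest member there.

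The genes that build, bind and surround these proteoglycans were read from lists. The family's other genes numbered 7 of 9 listed in the table, and 0 of 7 met the rule. The smallest p-values there were those of Ecm2, the neighbour of Aspn, with a log2 fold change of 0.39 (edgeR adjusted p = 0.488), and of Chadl, a collagen-binding protein, with 0.42 (edgeR adjusted p = 0.491). None of the 6 enzymes that start the sugar chain met the rule (median log2 fold change 0.04), and the xylosyltransferases Xylt2 and Xylt1 had values of 0.09 and 0.05. Of the 16 enzymes that build or modify chondroitin and dermatan sulfate, 0 met it (median 0.07), with 0.15 for Chpf and 0.13 for Chpf2, both chondroitin polymerising factors. Of the 5 enzymes of keratan sulfate 0 met it (median -0.12), with 0.48 for the sulfotransferase Chst2 (edgeR adjusted p = 0.382) and -0.16 for the galactosyltransferase B4galt4 (adjusted p = 0.727). The fitted mean was higher in Lhx6-/- libraries for 2 of these 5 and lower for 3. No gene of these enzyme lists thus passed the rule, which 3.28% of all genes tested met. Lists this short can hold none at that share.

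Among the partners in the matrix, 0 of 12 collagen genes met the rule, against 3.28% of all genes tested. Of the 12, 11 had a higher fitted mean in Lhx6-/- libraries (median log2 fold change 0.13), against 9996 of all 20114 genes. Whether this follows the cell make-up of the pools was not tested. Col3a1, the fibrillar collagen that accompanies collagen I in soft tissue, was measured at 2334, 2389 and 2298 CPM in Control and 3026, 2954 and 2699 CPM in Lhx6-/- libraries, with a log2 fold change of 0.31 (edgeR adjusted p = 0.202). Col6a1, a chain of the microfibrillar collagen VI to which biglycan and decorin bind, had a log2 fold change of 0.23 (edgeR adjusted p = 0.299). Of the 12 tested enzymes and helpers of collagen processing and cross-linking 0 met the rule (median 0.10), with 0.13 for the lysyl oxidase Loxl2 and 0.22 for Pcolce2, an enhancer of procollagen processing. All 12 had a higher fitted mean in Lhx6-/- libraries, so this lean was not particular to the collagens. Of the sugar chain enzymes above, it was higher for 5 of 6 (start), 11 of 16 (chondroitin and dermatan) and 2 of 5 (keratan).

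Past the rule stood 1 of the 5 growth factors that these proteoglycans bind and 3 of 25 other proteoglycans and link proteins. All were higher in Lhx6-/- tissue, and the share over all genes tested was 3.28%. These lists were chosen with earlier results of these data known, so the share is no test of the counts. Bmp2 is already among the top differentially expressed genes that the paper lists from its RNA sequencing. Bmp2, a bone morphogenetic protein of tooth and bone formation, was measured at 23.8, 26.8 and 20.1 CPM in Control and 41.1, 37.8 and 41.1 CPM in Lhx6-/- libraries. The groups were far apart, with a log2 fold change of 0.76 ± 0.10 (SE, edgeR adjusted p = 0.00879). Spock1, a testican proteoglycan of the extracellular matrix, rose from 7.49, 9.34 and 7.12 CPM to 15.0, 16.5 and 13.1 CPM, a log2 fold change of 0.90 ± 0.14 (SE, edgeR adjusted p = 0.0185). Hapln1, which links proteoglycans to hyaluronan, and Esm1, a proteoglycan of endothelium, both had a log2 fold change of 0.65, with edgeR adjusted p-values of 0.136 and 0.413. The medians of these lists were 0.09 and 0.05, beside 0.00 for all genes.

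**Figure D4:**
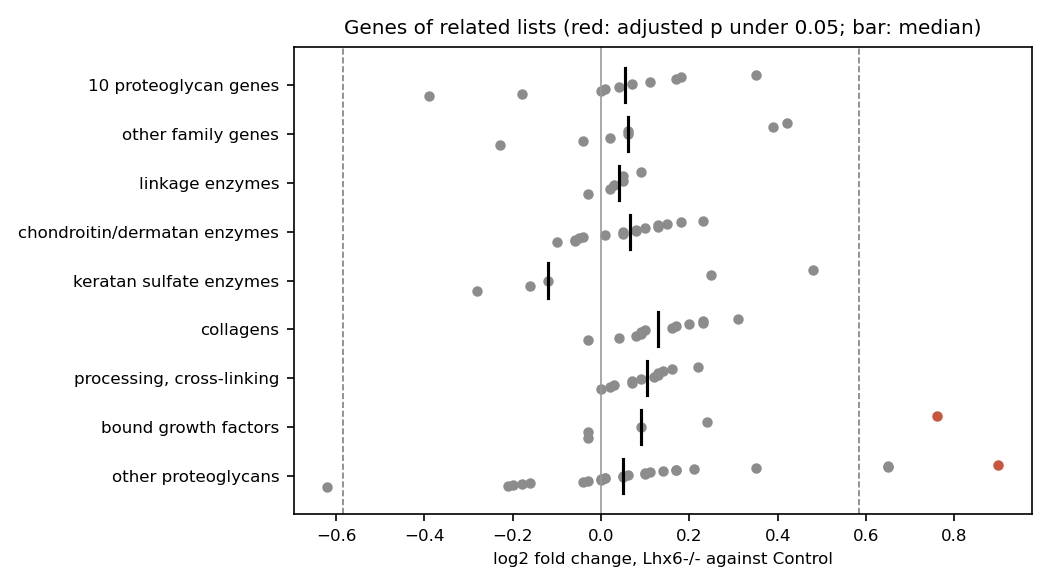
Log2 fold change (Lhx6-/- against Control) of each tested gene, by list, with the list's median as a black bar, dashed lines at a 1.5-fold change and genes with an adjusted p under 0.05 in red. The 2 red points are Bmp2 (0.76) and Spock1 (0.90), and none of the 10 proteoglycan genes lies beyond a dashed line.

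The values of the 10 genes were recomputed under 17 other fits. Of the 170 values, 0 had an adjusted p under 0.05, the smallest being the 0.0565 of Bgn given above. The log2 fold change lay beyond 1.5-fold in 3 of them, all of Kera, and it stood on the other side of 0 in 15, all of genes that the fit reported above placed near 0 or of Kera.

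**Figure D5:**
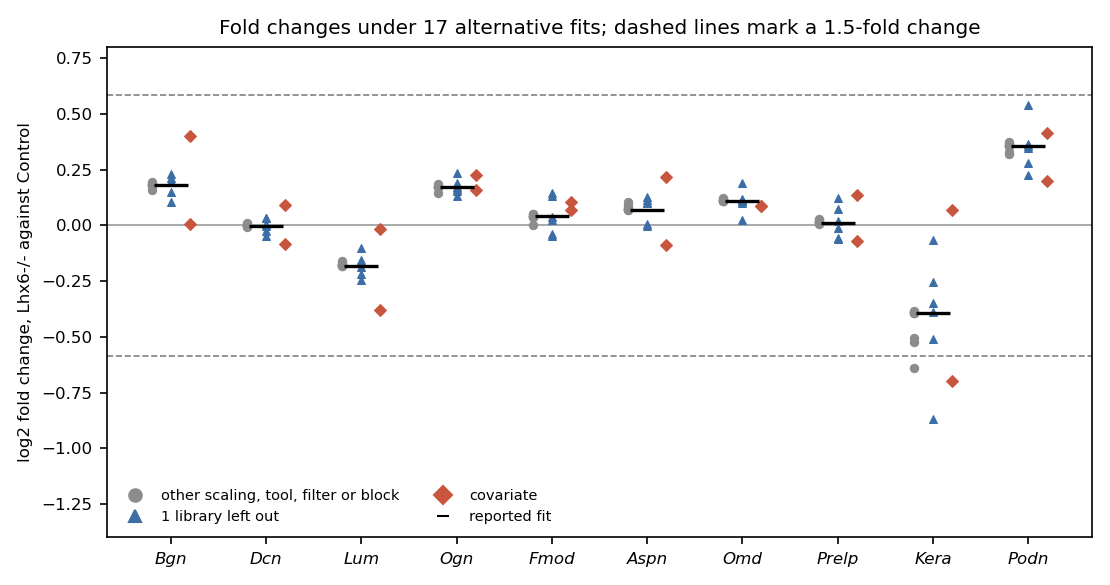
Log2 fold change of each gene under the reported fit (black bar) and 17 other fits, namely other scalings, tools, filters or a block (grey), 1 library left out (blue) and a covariate for epithelial or Y-linked genes (red), with dashed lines at a 1.5-fold change. The points of Kera reach from -0.87 to 0.071, and those of Dcn, Fmod, Aspn and Prelp lie on both sides of 0.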

How the data were processed

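RNA was sequenced from 3 Control and 3 Lhx6-/- libraries, grouped by the GEO labels. Per the paper's methods and the submitters' processing notes, the authors trimmed single-end reads, aligned them with STAR 2.6.1d to mm10 (GRCm38) and quantified genes in Partek. The annotation and the counting tool's settings are not given in the sources used here. The estimated counts per gene, deposited by the authors without scaling, cover 23594 genes, each with at least 10 counts in some library. They were rounded to whole numbers. Gene names came from the authors' results table, which lists the genes in the same order, checked through its column of totals (largest relative deviation 1.14e-07). That total, a score deposited by the authors, is a sum of scaled counts over the libraries and served for nothing else. Its fold changes, ratios, least-squares means, p-values and FDR were not used.

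Counts were scaled by TMM, filtered with filterByExpr (20114 genes tested) and fitted in edgeR 4.0.16 (R 4.3.3) with the robust quasi-likelihood test of genotype. P-values were two-sided and adjusted over all tested genes by the Benjamini-Hochberg method. The rule was a fold of at least 1.5 with an unadjusted p under 0.05. The 95% interval came from the fit's standard error. The scripts were tested on simulated data. Library totals of 60132323 to 76157433 set the precision, and no pair of replicates agreed within sampling noise. Exon lengths (GENCODE vM21) merge all protein-coding transcripts of a gene. DESeq2 1.42.0, limma 3.58.1, other scalings and filters, a replicate block, covariates and leaving out each library were alternatives. The members and lists, marker lists included, were chosen with earlier results of these data known. Named were all 10 members, Lhx6, Xist and the Y-linked genes, each member's nearest gene and, per list, genes that met the rule or the 2 with the smallest p. Of marker lists only the former were named. Some genes of these lists are not reported here by name.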

Additional observations from a re-analysis of the deposited data

How the results depend on the processing

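Of the 17 alternative fits none gave any of the 10 genes an adjusted p under 0.05. The fold changes near 0 changed direction in some of them. The log2 fold change of Dcn was 0.007 with upper-quartile scaling, 0.012 with total-count scaling and 0.092 with the epithelial covariate, which also gave 0.071 for Kera and -0.071 for Prelp. With the Y-linked covariate Aspn stood at -0.09. When each library was left out in turn, the log2 fold change ran from -0.046 to 0.035 for Dcn, -0.05 to 0.143 for Fmod, -0.061 to 0.122 for Prelp, -0.005 to 0.128 for Aspn, 0.023 to 0.19 for Omd and 0.227 to 0.542 for Podn. The number of members that met the rule ran from 0 to 1, the 1 being Kera without Lhx6-/- replicate 3. With an unadjusted p under 0.05 at any fold the count was 1 member and 1974 genes, and with an adjusted p under 0.05 at any fold 81 genes, by construction of the threshold. The count of all genes that met the rule was 1241 with the Y-linked covariate, against 660, and the cause was not tested. Over the fits that left out 1 library it ran from 607 to 968. The fit with the replicate block gave 652 genes and 0 members, and -0.51 for Kera. The paper's methods speak of 3 pairs of samples, but which libraries form a pair is not given in the sources used here. The block used the numbers in the titles, which for Lhx6-/- libraries differ from those in the submitters' descriptions. Deviations of libraries with the same title number correlated at 0.026, -0.029 and -0.031 over genes. The title numbers are therefore not known to pair the libraries, and a fit by the paper's pairs could not be made. With 3 pools per genotype, the intervals of Kera and Podn reach beyond 1.5-fold, so these data do not bound their change within that size.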
